A study of Mus musculus with 40 samples.

Results

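Described here are 10 genes of the developing heart, measured by bulk RNA-sequencing of 24 whole mouse embryos at embryonic day (E) 9.5. They are the transcription factor genes *Nkx2-5*, *Gata4*, *Gata6*, *Hand1*, *Hand2*, *Isl1* and *Mef2c* and the sarcomere genes *Tnnt2*, *Myh6* and *Myh7*. They were taken by gene symbol from the 26411 genes of the count files, with no measured value in the rule, and all 10 were among the 14183 protein-coding genes that passed the filter on low counts. The question was whether the amount of heart muscle RNA, or the genes of the second heart field, differed between genotypes when KAT6A or KAT6B was lost or had lost its acetyltransferase activity.

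KAT6A and KAT6B are related histone lysine acetyltransferases. There were 6 genotypes of 4 embryos each. WT embryos carried unmutated *Kat6a* and *Kat6b*. *Kat6a-/-* embryos were homozygous for an allele labelled cfd, and *Kat6b-/-* embryos were homozygous for an allele labelled dec, both of them deletions of several exons and both present in every cell. *Kat6a E/E* embryos were homozygous for G656E and *Kat6b E/E* embryos for G577E, glycine-to-glutamic acid changes in the acetyl-CoA binding part of the KAT domain that leave a full-length protein. *Kat6a E/E;Kat6b E/E* embryos, called double point mutants below, were homozygous for both changes. No agent was given, the alleles were kept on C57BL/6 or C57BL/6J, and embryos had been picked for a similar outward appearance, which limits what can be read about growth delay. The embryos came from 17 litters. WT embryos had a mutant littermate in 3 litters, while no litter of the *Kat6b E/E* or double point mutant embryos held a WT embryo, so litter and genotype cannot be told apart there beyond what the model of litter as a random effect takes up.

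The first heart muscle cells arise from the cardiac crescent, and a second population of progenitors, the second heart field, lies behind the heart tube in the pharyngeal mesoderm and adds the outflow tract, the right ventricle and part of the atria. *Isl1* marks the second heart field, *Mef2c* acts downstream of it, and *Nkx2-5*, *Gata4*, *Gata6*, *Hand1* and *Hand2* act in progenitors and in differentiating heart muscle. *Tnnt2* encodes cardiac troponin T, a thin filament protein, and *Myh6* and *Myh7* encode the alpha and beta cardiac myosin heavy chains, the motors of the thick filament. At this stage the troponin and myosin genes are read chiefly from the beating heart. The transcription factor genes are read from other tissue too: *Isl1* in motor neurons and pharyngeal endoderm, *Gata4* and *Gata6* in gut endoderm, *Hand1* and *Hand2* in lateral mesoderm and pharyngeal arches, and *Mef2c* in endothelium and neural crest. In whole embryos, fewer cells of a type and less RNA per cell cannot be told apart.

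Total counts per library ran from 8401990 to 23339359. The targeted genes gave no check of the null alleles, because counts are summed over all exons: *Kat6a* lay between 159.8 and 170.8 CPM (library-scaled counts, after TMM normalisation) in *Kat6a-/-* and between 168.5 and 186.4 CPM in WT, and *Kat6b* was higher in *Kat6b-/-* than in WT (log2 fold change 0.41 ± 0.07 SE, FDR = 0.00442). The study described all embryos as male. In 3 libraries, *Kat6a-/-* replicate 2 and *Kat6b-/-* replicates 2 and 3, *Xist*, the RNA of the inactive X chromosome, stood at 518 to 738 CPM and the Y-linked genes summed to at most 0.196 CPM, whereas *Xist* was at most 0.503 CPM and the Y-linked sum at least 142 CPM in the other 21. *Kat6a-/-* replicate 2 was also the lowest of all 24 libraries in 6 of the 10 heart genes and the lowest of its genotype in 9 of them. Many calls that rest on these libraries are therefore given with and without them. Without them, no *Kat6a-/-* or *Kat6b-/-* embryo shared a litter with a WT embryo. Litter and genotype then cannot be told apart in these genotypes either, beyond what the random effect of litter takes up. Some sums, ranges and comparisons between mutants are given for all 24 embryos only.

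The promoters of the sarcomere genes are shown because *Tnnt2* and *Myh7* had the largest estimates against WT, with *Myh6* beside them as the neighbour of *Myh7*. Each is the stretch from 250 bases before to 50 bases after a RefSeq start site in the GRCm38.p6 build, 5′ to 3′ on the gene's strand, and capitals mark matches to 3 of 5 motifs searched on both strands. The MCAT motif, which TEAD factors bind, was spelled CATTCC. The motif of the GATA factors was spelled with the letters AGATAA, and the box of the TATA-binding protein with the letters TATAAA.

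*Tnnt2*: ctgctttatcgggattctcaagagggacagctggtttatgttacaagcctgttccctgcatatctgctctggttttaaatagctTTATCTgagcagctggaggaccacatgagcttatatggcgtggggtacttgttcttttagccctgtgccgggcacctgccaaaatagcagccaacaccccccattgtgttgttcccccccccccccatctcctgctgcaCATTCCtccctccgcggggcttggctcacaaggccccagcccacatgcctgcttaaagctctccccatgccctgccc

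*Myh6*: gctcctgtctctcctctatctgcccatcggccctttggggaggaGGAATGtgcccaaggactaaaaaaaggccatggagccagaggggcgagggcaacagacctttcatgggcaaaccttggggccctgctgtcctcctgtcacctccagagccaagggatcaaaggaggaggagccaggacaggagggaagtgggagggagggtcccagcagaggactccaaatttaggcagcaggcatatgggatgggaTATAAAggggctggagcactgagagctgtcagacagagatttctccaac

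*Myh7*: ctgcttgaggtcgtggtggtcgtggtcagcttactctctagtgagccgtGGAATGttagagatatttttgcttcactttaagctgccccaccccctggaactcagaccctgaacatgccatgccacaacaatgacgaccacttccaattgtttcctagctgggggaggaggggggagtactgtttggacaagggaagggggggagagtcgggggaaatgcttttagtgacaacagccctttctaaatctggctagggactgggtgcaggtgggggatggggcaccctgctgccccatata

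The *Tnnt2* window is chr1:135836084-135836383 on the plus strand, the *Myh6* window chr14:54966558-54966857 and the *Myh7* window chr14:54994577-54994876, both on the minus strand. Each held 1 MCAT match, at -27 to -22 in *Tnnt2*, at -206 to -201 in *Myh6* and at -201 to -196 in *Myh7*, the latter 2 on the opposite strand, against 14.7% of 32851 promoters with at least 1. *Tnnt2* also held a GATA match at -166 to -161 on the opposite strand (11.2% of promoters) and *Myh6* a TATA match at 2 to 7 (13.6% of promoters). The CArG box and the MEF2 site, the other two, had 0 matches in these windows (1.63% and 3.19% of promoters). *Tnnt2* and *Myh7* each have a further start-site window, not shown, with 0 matches to any of the 5. No marked match overlapped another. These are letters found, not sites shown to be bound. In the GRCm39 build of the alignment, *Tnnt2* lies on chromosome 1 from 135763738 to 135780315, and *Myh6* (55179367 to 55205887) and *Myh7* (55208141 to 55232084) lie next to each other on chromosome 14. *Myh6* and *Myh7* share 1172 of their 66-base stretches, so some reads fit both. Libraries without strand information cannot separate *Myh7* from *Mhrt*, an antisense RNA over 24.6% of its exonic bases; the counts given to *Mhrt* itself were at most 11 per library.

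In WT embryos the level per kilobase of transcript was highest for *Tnnt2*, at 66.6 ± 10.8 CPM per kb (mean ± SD, n = 4), followed by *Myh6* at 47.8 ± 12.1 and *Myh7* at 33.6 ± 5.5 CPM per kb. Among the transcription factors it ran from 22.5 ± 3.27 CPM per kb for *Hand2* and 21.1 ± 2.23 for *Hand1* down to 4.92 ± 0.6 for *Mef2c*. *Gata6*, *Gata4*, *Isl1* and *Nkx2-5* lay between 7.95 and 11.5 CPM per kb. Every one of the 10 genes was counted in every embryo, with at least 119 counts (*Nkx2-5*). The spread between embryos, as the coefficient of variation in WT, ran from 3.62% (*Gata6*) to 25.3% (*Myh6*).

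**Figure D1:**
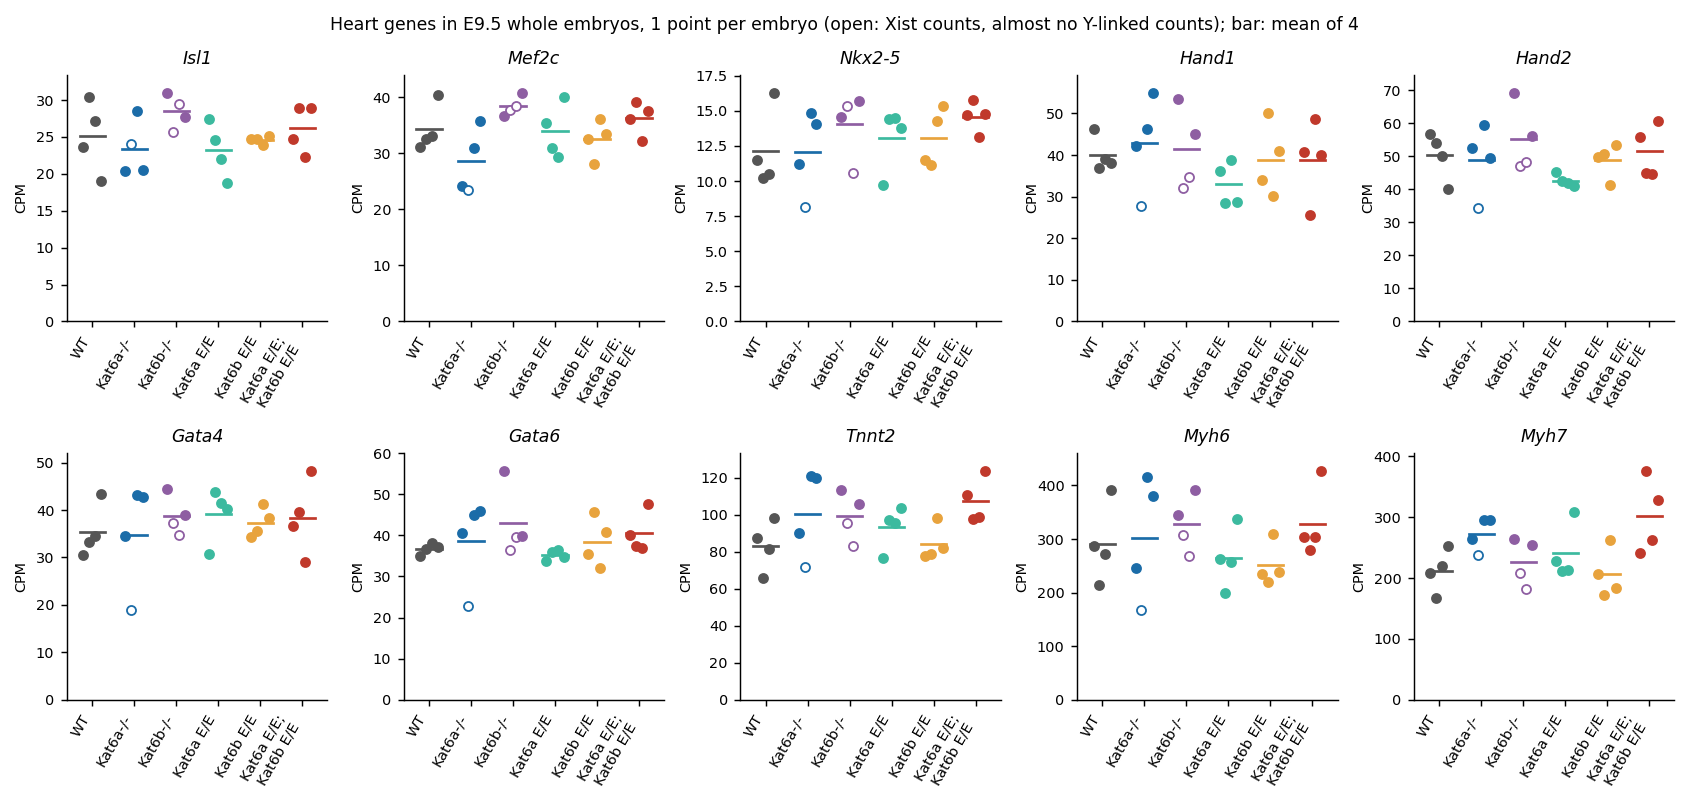
CPM (linear axes from 0) of the 10 heart genes in each embryo by genotype, with bars at the mean of 4 and open points for the 3 libraries with *Xist*. *Tnnt2* lies at 97.6 CPM or more in all 4 double point mutants and at 98.4 CPM or less in all 4 WT embryos, and the open point of *Kat6a-/-* is the lowest of its genotype in 9 of the 10 genes.

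None of the 7 transcription factor genes was called (FDR<0.05) in any genotype against WT. Over the 35 tests in limma, the log2 fold changes ran from -0.29 to 0.22, the smallest FDR was 0.338, and 2 tests had an unadjusted p under 0.05. DESeq2 and edgeR quasi-likelihood tests also called 0 of the 7. The 95% confidence intervals of these fold changes reached from 0.673 to 1.36, which bounds what could have gone unseen in these genes. Without the 3 *Xist* libraries 0 of the 35 were called and the smallest FDR was 0.207.

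*Isl1* was at 23.7, 30.4, 27.2 and 19.1 CPM in WT replicates 1 to 4 and at 20.4, 24.04, 28.5 and 20.6 CPM in *Kat6a-/-*. In *Kat6b-/-* it was at 31.0, 25.7, 29.5 and 27.8 CPM, in *Kat6a E/E* at 27.5, 24.6, 22.0 and 18.7 CPM, in *Kat6b E/E* at 24.7, 24.7, 23.9 and 25.1 CPM and in double point mutants at 24.7, 28.9, 22.2 and 29.0 CPM. No genotype stood outside the WT range as a group. The largest difference from WT was in *Kat6b-/-* (log2 fold change 0.22 ± 0.10 SE, FDR = 0.388), with an unadjusted p of 0.0421. *Isl1* was lower in all 4 *Kat6b E/E* than in all 4 *Kat6b-/-* embryos, as was *Mef2c*, a pattern that 1.61% of all genes showed in that comparison. Neither was called there (0 of 10 heart genes called, background 0.0353%), and *Isl1* had a log2 fold change of -0.22 ± 0.10 SE (FDR = 0.545). At an unadjusted p under 0.05 1 of 10 passed, as did 1253 of all 14183 genes tested. DESeq2 and edgeR quasi-likelihood tests called 0 of the 10. Between the null genotypes, *Isl1* was lower in *Kat6a-/-* than in *Kat6b-/-* by an estimate of -0.32 ± 0.10 SE (FDR = 0.0923).

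*Mef2c* was at 31.1, 32.6, 33.1 and 40.5 CPM in WT, at 24.1, 23.5, 30.9 and 35.7 CPM in *Kat6a-/-* and at 36.6, 37.8, 38.4 and 40.8 CPM in *Kat6b-/-*. The first 3 *Kat6a-/-* embryos lay below every WT embryo and the fourth within the WT range. The estimates against WT were -0.17 ± 0.09 SE in *Kat6a-/-* (FDR = 0.338) and 0.16 ± 0.09 SE in *Kat6b-/-* (FDR = 0.486). The ranges of the 2 null genotypes did not overlap, which 5.77% of all genes showed in that direction. The endothelial markers, another tissue with *Mef2c*, summed to between 345 and 478 CPM in *Kat6a-/-* (423 to 478 CPM without the *Xist* library). In WT they summed to between 505 and 554 CPM. In *Kat6a-/-* all 12 had a log2 fold change below 0 with 1 of them called lower. Their part in the *Mef2c* values was not tested.

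*Nkx2-5* ranged from 10.2 to 16.3 CPM in WT and from 8.17 to 15.8 CPM over the 20 mutants, and its largest estimate was 0.19 ± 0.12 SE in double point mutants (FDR = 0.423). *Hand1*, a factor of the left ventricle and outer curvature, had the largest negative estimate of the transcription factors, in *Kat6a E/E* (-0.29 ± 0.13 SE, FDR = 0.483). The 4 *Kat6a E/E* values were 36.1, 28.5, 38.8 and 28.7 CPM against 46.3, 36.9, 39.1 and 38.1 CPM in WT, so they overlapped. *Hand2*, a factor of the right ventricle, was at 40.9 to 45.3 CPM in *Kat6a E/E*, within the WT range of 40.2 to 56.9 CPM. *Gata6* and *Hand2* were lower in all *Kat6a E/E* than in all *Kat6b-/-* embryos (3.17% of all genes), and *Gata6* was higher in all double point mutants than in all *Kat6a E/E* embryos (2.42% of all genes), with FDR between 0.641 and 0.825 in these tests. *Gata4* and *Gata6* had estimates between -0.08 and 0.17 in all 5 genotypes. Most of their spread in *Kat6a-/-* was 1 embryo: replicate 2 had 18.9 CPM of *Gata4* and 22.8 CPM of *Gata6*, and the other 3 had at least 34.6 and 40.5 CPM. *Hand1*, *Hand2* and *Gata6* overlap annotated antisense RNAs over 12.5% to 36.8% of their exonic bases, which unstranded libraries do not separate.

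The sarcomere genes had the largest estimates. *Tnnt2* was at 87.7, 66.03, 81.6 and 98.4 CPM in WT replicates 1 to 4 and at 110.9, 97.6, 98.9 and 123.7 CPM in double point mutants. The lowest double point mutant was just under the highest WT embryo, and all others were above the whole WT range. *Tnnt2* rose in double point mutants (log2 fold change 0.36 ± 0.09 SE, 1.28-fold, 95% confidence interval 1.12 to 1.46, FDR = 0.0415) and was the 1 of 10 heart genes called in that comparison, where 2.91% of all genes were called. It kept its direction in all 21 other models and omissions but was called in 10 of them. The call was lost without double point mutant replicate 2 (FDR = 0.0833) or 4 (FDR = 0.0819), without WT replicate 2 (FDR = 0.113), 3 (FDR = 0.0557) or 4 (FDR = 0.0626), and when the surrogate variables were left out (FDR = 0.466). It was kept without the 3 *Xist* libraries (log2 fold change 0.44, FDR = 0.00771). Double point mutant replicate 2 had the highest leverage in the model, 0.88, with the next highest embryo at 0.60. Leverage is the weight of an embryo's own value in its fitted value.

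In *Kat6a-/-* embryos *Tnnt2* was at 90.4, 71.7, 121 and 119.9 CPM. Replicates 3 and 4 were above every WT embryo, and replicate 2 was lower than every library but WT replicate 2. The estimate was 0.27 ± 0.09 SE (FDR = 0.117). Without the 3 *Xist* libraries *Tnnt2* was called higher in *Kat6a-/-* (log2 fold change 0.47 ± 0.09 SE, FDR = 0.00671). The same gene was at 113.6, 95.4, 83.1 and 106.1 CPM in *Kat6b-/-*, at 76.7, 97.0, 95.7 and 104.0 CPM in *Kat6a E/E* and at 77.6, 79.0, 98.4 and 82.2 CPM in *Kat6b E/E*. The estimates against WT were 0.20 ± 0.09 SE (FDR = 0.403), 0.18 ± 0.09 SE (FDR = 0.528) and 0.06 ± 0.09 SE (FDR = 0.998), in that order.

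*Myh7* was at 208.9, 167.9, 220.0 and 251.9 CPM in WT, at 263.6, 237.2, 296.0 and 295.3 CPM in *Kat6a-/-* and at 241.2, 375.8, 262.5 and 327.9 CPM in double point mutants. Each of these 2 genotypes had 3 embryos above the whole WT range and 1 within it. The estimates were the largest among the 10 genes, 0.48 ± 0.13 SE in *Kat6a-/-* (1.4-fold, 95% confidence interval 1.15 to 1.69, FDR = 0.0635) and 0.41 ± 0.13 SE in double point mutants (1.33-fold, 95% confidence interval 1.09 to 1.62, FDR = 0.107), and both missed the threshold. Without the 3 *Xist* libraries both passed it, at 0.60 ± 0.13 SE (FDR = 0.0275) and 0.48 ± 0.11 SE (FDR = 0.0418). In the other genotypes *Myh7* ranged from 181.6 to 264.7 CPM (*Kat6b-/-*), from 211.1 to 309.4 CPM (*Kat6a E/E*) and from 172.4 to 262.6 CPM (*Kat6b E/E*), with estimates of 0.04, 0.24 and 0.02.

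The range of *Myh6* among the embryos of any genotype exceeded the range of the 6 genotype means. It was at 286.2, 214.6, 271.3 and 391.1 CPM in WT, at 246.3, 167.9, 416.3 and 380.4 CPM in *Kat6a-/-* and at 303.4, 279.4, 304.2 and 426.8 CPM in double point mutants. Its 5 estimates against WT lay between -0.15 and 0.10, each with an SE of 0.18 to 0.19. The smallest FDR of *Myh6* was 0.82.

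**Figure D2:**
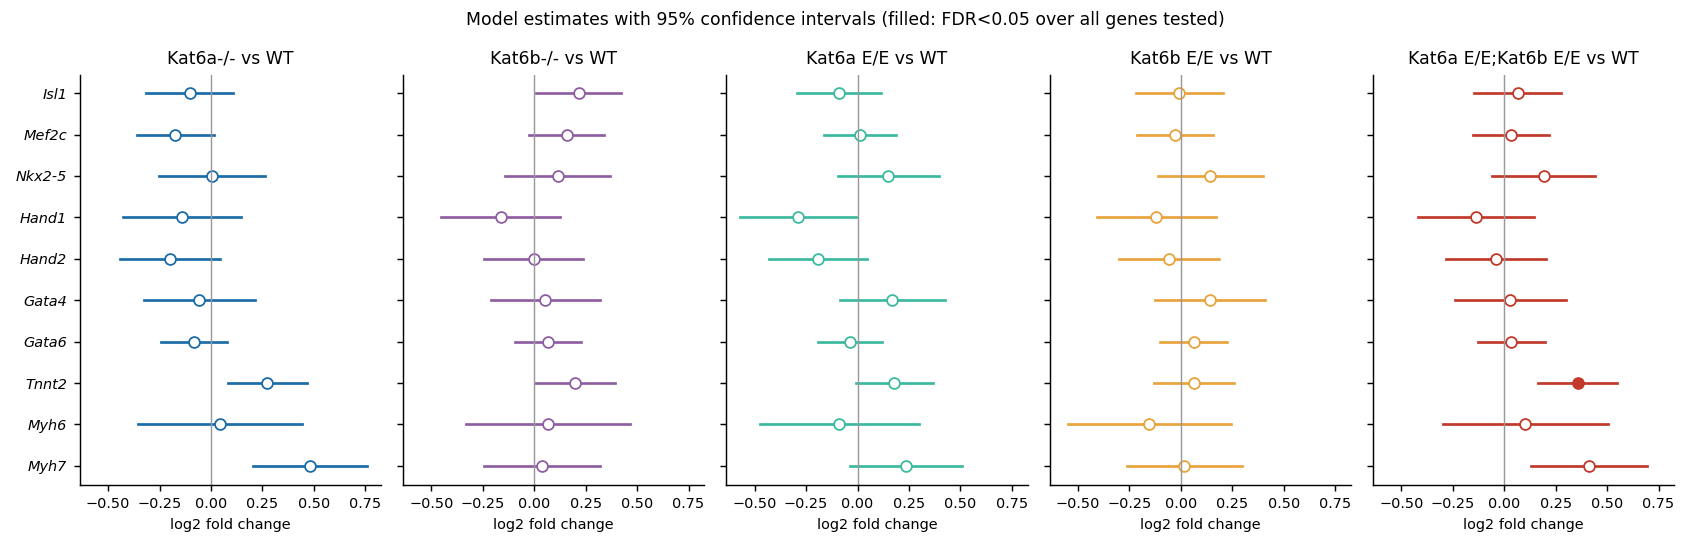
Log2 fold change against WT with 95% confidence intervals for the 10 heart genes in the 5 mutant genotypes, from the limma model over all 24 embryos, with filled points for FDR<0.05. The 1 filled point is *Tnnt2* in double point mutants (0.36), and the larger estimates of *Myh7* in *Kat6a-/-* (0.48) and in double point mutants (0.41) are open.

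Counted over the 10 genes, 0 were called in *Kat6a-/-*, where 2.64% of all genes were called, 0 in *Kat6b-/-* (0.508%), 0 in *Kat6a E/E* (0.275%), and for *Kat6b E/E* also 0 (0%). At an unadjusted p under 0.05 the counts were 2, 2, 1 and 0 of 10, where 16.9%, 12.1%, 10% and 4.41% of all genes passed, and in double point mutants 2 of 10 against 18.2%. DESeq2 called 1 in *Kat6a-/-* and 0 in the other 3, and edgeR quasi-likelihood tests called 0 in each of the 4. A single call among 10 genes is a share of 10%, so these counts cannot be set finely against the shares over all genes. The median log2 fold change of the 10 genes was -0.07 in *Kat6a-/-*, 0.07 in *Kat6b-/-*, -0.01 in *Kat6a E/E*, 0.00 in *Kat6b E/E* and 0.05 in double point mutants, and that of all genes was -0.00 or 0.00 in each. Without the 3 *Xist* libraries these medians of the 10 genes were 0.19, 0.30, -0.03, 0.01 and 0.12, in the same order. In that fit 2 of 10 were called in *Kat6a-/-* (2.94% of all genes) and 2 of 10 in double point mutants (3.67%), *Myh7* and *Tnnt2* each time. The 10-gene sets of values are not independent between genotypes, since all 5 comparisons share the WT embryos. No heart gene had all 4 embryos of a genotype above or below all 4 WT embryos, while 5.44% of all genes were wholly higher and 6.49% wholly lower in *Kat6a-/-*. These shares were 3.17% and 3.44% in *Kat6b-/-*, 2.32% and 2.62% for *Kat6a E/E*, 1.17% and 1.14% for *Kat6b E/E*, and 3.37% and 3.94% for double point mutants. Without the *Xist* libraries, *Gata6* and *Myh7* lay above all WT embryos in the remaining 3 *Kat6a-/-* and 2 *Kat6b-/-* embryos. *Tnnt2* did so in the 2 *Kat6b-/-* embryos. Fewer embryos separate more easily, and the shares over all genes were not counted for these smaller groups.

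Direct comparisons of mutants asked whether loss of the protein and loss of its activity differed in the heart genes. *Kat6a E/E* against *Kat6a-/-* called 0 of the 10 (1.6% of all genes), with *Myh7* at -0.25 ± 0.13 SE (FDR = 0.396) and *Tnnt2* at -0.10 ± 0.09 SE (FDR = 0.672). Double point mutants against *Kat6a-/-* called 0 of the 10 (0.00705% of all genes), with *Tnnt2* at 0.08 (95% confidence interval -0.11 to 0.28) and *Myh7* at -0.07 (95% confidence interval -0.36 to 0.22). A p that misses the threshold does not show that these genotypes have equal levels. Whether the double point mutant differed from the sum of the 2 single point mutants was tested as an interaction, and 0 of the 10 genes passed (0% of all genes). The interaction term was 0.11 ± 0.13 SE for *Tnnt2* (FDR = 0.918), 0.16 ± 0.19 SE for *Myh7* (FDR = 0.922) and 0.16 ± 0.15 SE for *Isl1* (FDR = 0.9). At an unadjusted p under 0.05, 0 of the 10 passed for *Kat6a E/E* against *Kat6a-/-*, 1 for double point mutants against *Kat6a-/-* and 0 for the interaction. Of all 14183 genes tested, 2214, 1479 and 910 passed, in that order. DESeq2 and edgeR quasi-likelihood tests called 0 in both comparisons with *Kat6a-/-*.

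A list of 24 further sarcomere genes, which holds none of the 10, gave a wider view of heart muscle. Like the other lists, it was chosen with earlier results of these data known. In *Kat6a-/-* 5 of 24 were called higher and 0 lower (20.8%, against 1.26% of all genes called higher). They were *Myl3* (0.59 ± 0.11 SE, FDR = 0.00744), the essential light chain of slow muscle and ventricle, *Csrp3* (0.54 ± 0.12 SE, FDR = 0.0182), a Z-disc LIM protein, and *Tnni1* (0.38 ± 0.09 SE, FDR = 0.0277), the slow troponin I of the embryonic heart. *Tnnc1*, cardiac troponin C (0.43 ± 0.11 SE, FDR = 0.0411), and *Myl2*, the ventricular regulatory light chain (0.60 ± 0.15 SE, FDR = 0.0459), were the other two. *Myl3* stood at 64.8, 45.8, 59.7 and 62.2 CPM in *Kat6a-/-* against 38.2, 33.5, 37.5 and 42.6 CPM in WT, with every *Kat6a-/-* embryo above every WT embryo. *Myl2* was at 102.4, 73.7, 81.6 and 78.6 CPM against 45.5 to 57.2 CPM, likewise apart. The median log2 fold change of the 24 was 0.25, and 23 of them had an estimate above 0.

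In double point mutants 1 of the 24 was called higher (4.17%, against 1.34% of all genes), again *Myl3* (0.60 ± 0.11 SE, FDR = 0.00592), at 55.6, 58.0, 54.6 and 67.2 CPM. The median was 0.30, 23 of 24 estimates were above 0, and 13 had an unadjusted p under 0.05, as did 18.2% of all genes. Several genes of the list ran closely with *Tnnt2* across embryos (below), so their estimates are not independent of each other. In *Kat6b-/-* and the single point mutants (*Kat6a E/E*, then *Kat6b E/E*) the medians were 0.08, 0.17 and 0.05, each with 0 genes called. At an unadjusted p under 0.05 there were 0, 4 and 1 genes, against 12.1%, 10% and 4.41% of all genes. *Kat6a-/-* and double point mutants were set against the same WT embryos, so the 2 lists of values are not independent of each other.

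The counts for the sarcomere list changed when the fit left out the 3 *Xist* libraries. Without them, 16 of 24 were called higher in *Kat6a-/-* (median 0.49, with 1.27% of all genes called higher), 11 of 24 in double point mutants (median 0.36, 1.72% of all genes) and 1 of 24, *Mybpc3*, in *Kat6b-/-* (median 0.35, 0.0697% of all genes). *Myl3* was then at 0.70 (FDR = 0.00116) in *Kat6a-/-* and at 0.65 (FDR = 0.00168) in double point mutants. In the same fit 7 of the 24 were called lower in *Kat6a E/E* than in *Kat6a-/-* (median -0.35, 0.46% of all genes called lower). *Myl2*, called with all embryos, missed the threshold without them (FDR = 0.0501). This omission was chosen after the data had been seen. None of the omitted libraries was a WT or double point mutant embryo. With them went the only *Kat6a-/-* and *Kat6b-/-* embryos that had a WT littermate. The count filter, surrogate variables and spread were estimated anew from the remaining 21 embryos. How much of the change came from the omitted values and how much from these new estimates was not tested.

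**Figure D3:**
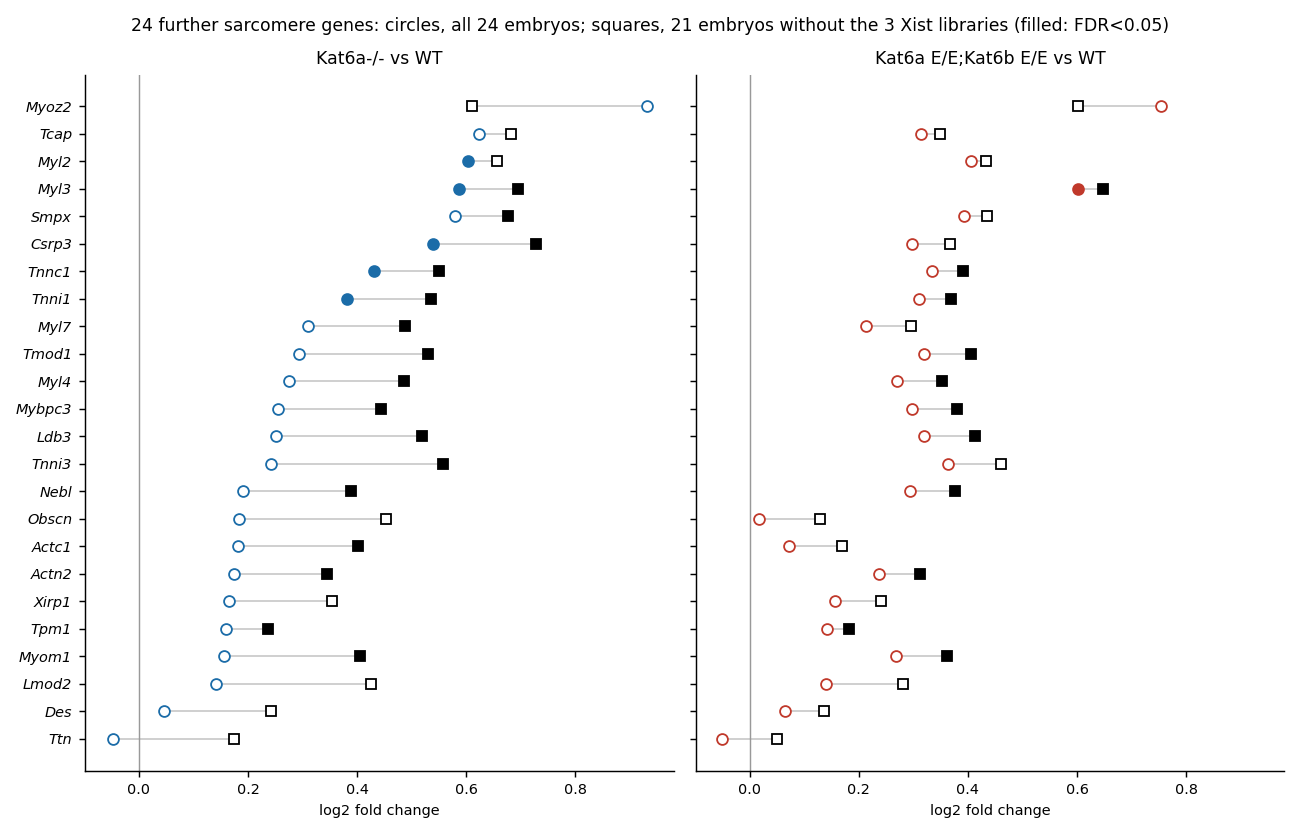
Log2 fold changes of the 24 further sarcomere genes in *Kat6a-/-* and in double point mutants against WT, ordered by the *Kat6a-/-* value. Circles are estimates from all 24 embryos and squares those without the 3 *Xist* libraries, filled at FDR<0.05: filled circles number 5 and 1, filled squares 16 and 11.

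Summed over the 24 genes, the sarcomere level was 1596, 1377, 1607 and 1945 CPM in WT and 2112, 1492, 2176 and 2189 CPM in *Kat6a-/-*. In *Kat6a-/-*, 3 values lay above all WT embryos, and the low one was the *Xist* library. In double point mutants the sums were 1936, 1742, 1912 and 2123 CPM, with 1 above the WT range. The ratio of means to WT was 1.22 in *Kat6a-/-* (1.32 without replicate 2), 1.12 in *Kat6b-/-* (1.265 without replicates 2 and 3), 1.05 in *Kat6a E/E*, 1.025 in *Kat6b E/E* and 1.18 in double point mutants. Skeletal muscle shares several of these genes, and the 9 tested markers of the skeletal myotome gave 0 calls in each of the 5 genotypes, with summed levels of 50.6 to 89.85 CPM in *Kat6a-/-*, 65.85 to 84.4 CPM in double point mutants and 68.3 to 79.2 CPM in WT. At an unadjusted p under 0.05, 3 of the 9 passed in *Kat6a-/-*, where 16.9% of all genes passed, and 0 in the others. The median of the 9 in *Kat6a-/-* was -0.26, with 6 of them below 0. Without the 3 *Xist* libraries 10 were tested, with a median of -0.30 in *Kat6a-/-*. In that fit 2 of the 10 were called higher in *Kat6a-/-*, where 1.27% of all genes were called higher. They were *Acta1* (0.50 ± 0.09 SE, FDR = 0.00203), skeletal alpha-actin, and *Myl1* (0.83 ± 0.16 SE, FDR = 0.00568), a fast muscle light chain. The embryonic heart also expresses both. The sarcomere sum was at least 19.42 times the myotome sum in every embryo. What skeletal muscle contributes to the sarcomere values was not tested.

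**Figure D4:**
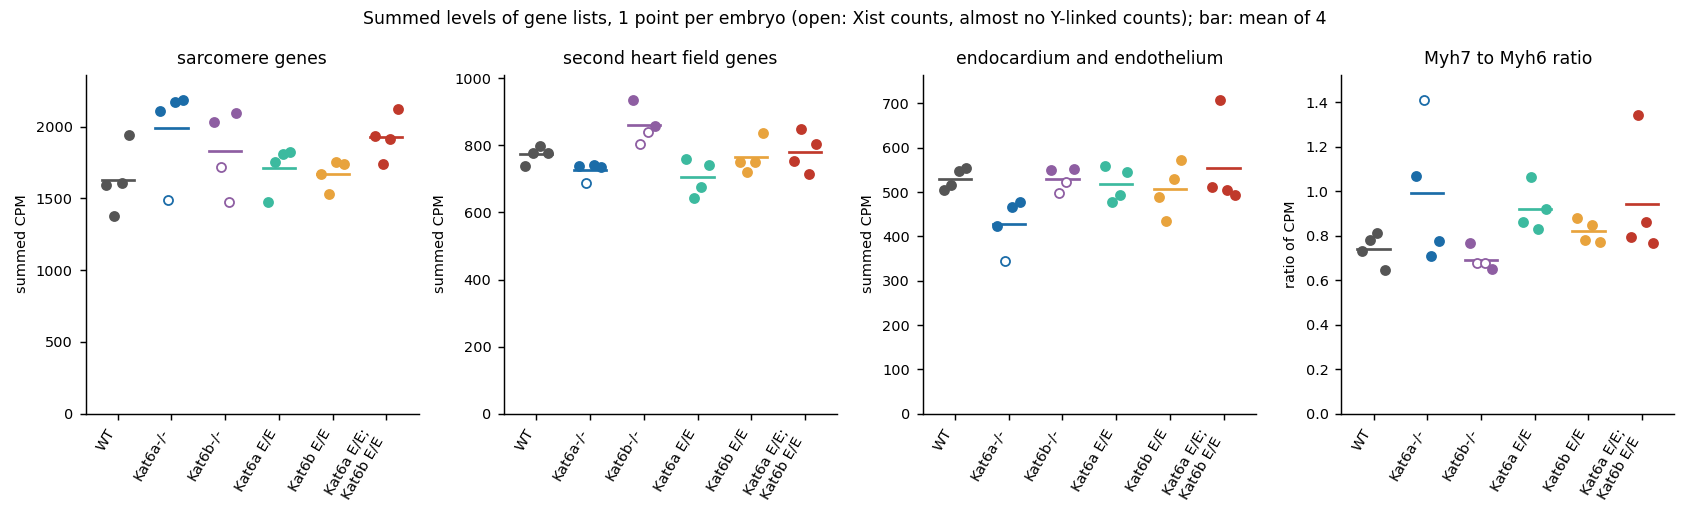
Summed CPM of the sarcomere, second heart field and endothelial lists and the ratio of *Myh7* to *Myh6*, per embryo (linear axes from 0, bars at the mean of 4, open points for the 3 *Xist* libraries). In the sarcomere panel 3 *Kat6a-/-* embryos lie at 2112 to 2189 CPM above a WT maximum of 1945 CPM, and the fourth lies at 1492 CPM.

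The balance of the myosin heavy chains was read as the ratio of *Myh7* to *Myh6* CPM, a measure chosen after the values had been seen and given without a test. It was 0.730, 0.782, 0.811 and 0.644 in WT and 1.07, 1.41, 0.711 and 0.776 in *Kat6a-/-*. In *Kat6a E/E* it was 0.863, 1.06, 0.832 and 0.919, so every *Kat6a E/E* embryo was above every WT embryo. The double point mutants had 0.795, 1.345, 0.863 and 0.768, and *Kat6b-/-* had 0.650 to 0.766. *Myh7* is the chain of embryonic ventricle and *Myh6* that of atria and of adult mouse ventricle.

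Of the other genes of the heart muscle cell, the list of calcium, channel and secreted genes had 11 tested members (*Sln* was below the count filter). In *Kat6b-/-* 1 of 11 was called (9.09%, against 0.508% of all genes), *Nppb*, which encodes the B-type natriuretic peptide of trabecular myocardium: it fell by 1.33 ± 0.26 SE on the log2 scale (FDR = 0.02). Its levels were low, at 4.07, 3.34, 6.01 and 7.72 CPM in WT and 1.22, 3.31, 1.35 and 4.37 CPM in *Kat6b-/-*, and the ranges overlapped. Without the 3 *Xist* libraries it was not called (FDR = 0.288), and *Atp2a2*, the calcium pump of the sarcoplasmic reticulum, was called higher in double point mutants (0.13 ± 0.04 SE, FDR = 0.0392). In the other 4 genotypes 0 of 11 were called, and 2 had an unadjusted p under 0.05 in double point mutants and 1 in each of the others.

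Among 23 other cardiac transcription factor genes, 1 was called in *Kat6a-/-* and 1 in double point mutants, a share of 4.35% each, near the 2.64% and 2.91% over all genes. *Tbx5*, a factor of atria, left ventricle and forelimb, fell by 0.44 ± 0.11 SE on the log2 scale in *Kat6a-/-* (FDR = 0.0263), from 15.3, 19.6, 21.3 and 23.9 CPM in WT to 14.9, 10.2, 16.0 and 18.4 CPM. The *Xist* embryo held the lowest of these values, and without the 3 libraries *Tbx5* was not called (-0.22 ± 0.12 SE, FDR = 0.386). Then *Smyd1*, a muscle methyltransferase, was called higher (0.41 ± 0.09 SE, FDR = 0.0136) and *Nkx2-6*, a relative of *Nkx2-5*, lower (-0.80 ± 0.20 SE, FDR = 0.0297) in *Kat6a-/-*, and *Smyd1* was called higher in double point mutants (0.31 ± 0.08 SE, FDR = 0.0347). *Srf*, a general factor of muscle and cytoskeletal genes, fell by 0.30 ± 0.06 SE in double point mutants (FDR = 0.00928), from 130 to 151.4 CPM in WT to 129.1, 90.3, 107.6 and 132.6 CPM. The paper reports lower *Tbx5* in *Kat6a-/-* and in double point mutants, and in the latter it was not called here. Neither *Kat6b-/-* nor the single point mutants had any of the 23 called (0, 0 and 0). At an unadjusted p under 0.05 there were 2, 4 and 0, against 12.1%, 10% and 4.41% of all genes. The 23 medians lay between -0.06 and 0.07.

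The second heart field list had 18 genes, all tested, and was chosen with earlier results of these data known. The paper reports lower *Tbx1*, *Foxc1* and *Foxc2* in *Kat6a-/-* from the same embryos, so shares called in this list are no independent evidence. For double point mutants it reports lower *Tbx1* and *Foxc2*. Over all 24 embryos, *Foxc1* was not called here in *Kat6a-/-*, nor *Tbx1* in double point mutants. In *Kat6a-/-* its median log2 fold change was -0.11, and 5 were called lower and 1 higher (33.3% called, against 2.64% of all genes). *Tbx1*, a T-box factor of pharyngeal mesoderm and endoderm, fell by 0.77 ± 0.10 SE (FDR = 0.000171), from 25.8, 25.3, 24.5 and 31.8 CPM in WT to 12.5, 17.7, 14.1 and 12.97 CPM, with no overlap. *Foxc2*, a forkhead factor of pharyngeal and paraxial mesoderm, fell by 0.56 ± 0.10 SE (FDR = 0.00352), from 40.6 to 50.9 CPM to 26.7 to 32.8 CPM. *Prdm1*, a transcriptional repressor of pharyngeal mesoderm, fell by 0.54 ± 0.11 SE (FDR = 0.0119). *Sema3c*, a guidance cue of the outflow tract, rose by 0.37 ± 0.07 SE (FDR = 0.00523). A further call, *Hoxb1* (-0.43 ± 0.12 SE, FDR = 0.044), lay outside the naming rule and was named after its value was seen. All of these genes are also read outside the heart field at this stage. Without the 3 *Xist* libraries *Tbx1* (-0.95), *Hoxb1* and *Sema3c* kept their calls, whereas *Foxc2* (FDR = 0.0595) and *Prdm1* (FDR = 0.0662) did not.

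In double point mutants 2 of the 18 were called (11.1%, against 2.91% of all genes): *Sema3c* rose by 0.33 ± 0.07 SE (FDR = 0.0115) and *Foxc2* fell by 0.37 ± 0.10 SE (FDR = 0.0445). The *Foxc2* values, 37.0, 52.7, 31.1 and 39.0 CPM, included 1 above the whole WT range, and the call was not kept without the *Xist* libraries (FDR = 0.173). *Tbx1* was then called lower in double point mutants (-0.35 ± 0.10 SE, FDR = 0.0472), and *Sema3c* kept its call. In *Kat6b-/-* 1 of 18 was called (5.56%, against 0.508% of all genes): *Wnt5a*, a secreted signal of splanchnic mesoderm, rose by 0.40 ± 0.07 SE (FDR = 0.00474), from 64.3, 74.3, 82.9 and 62.8 CPM in WT to 99.7, 99.8, 91.8 and 120.6 CPM, with no overlap, and kept its call without the 3 libraries (FDR = 0.00169). With all embryos, the single point mutants had 0 of 18 called each, with 7 and 3 at an unadjusted p under 0.05. The fit without the 3 *Xist* libraries called 1 of 18 lower in *Kat6a E/E*, where 0.293% of all genes were called lower. It called 0 of 18 in *Kat6b E/E*, where 0% of all genes were called. *Tbx1* was higher in *Kat6a E/E* than in *Kat6a-/-* with all embryos (0.55 ± 0.11 SE, FDR = 0.00893). The summed list was 805 to 936 CPM in *Kat6b-/-*, above all WT embryos (740 to 799.5 CPM), and 687 to 742 CPM in *Kat6a-/-*. Without the *Xist* libraries it was 859 to 936 CPM in *Kat6b-/-* and 735 to 742 CPM in *Kat6a-/-*.

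Over the 4 heart lists, 76 genes in all, limma called 12 in *Kat6a-/-*, 2 in *Kat6b-/-*, 0 in each single point mutant and 4 in double point mutants, where 2.64%, 0.508%, 0.275% or 0%, and 2.91% of all genes were called, in that order. In the order *Kat6a-/-*, *Kat6b-/-*, *Kat6a E/E*, then *Kat6b E/E*, then double point mutants, the counts at an unadjusted p under 0.05 were 31, 10, 16, 5 and 26, against 16.9%, 12.1%, 10%, 4.41% and 18.2% of all genes. DESeq2 called 14, 1, 1, 0 and 7 and edgeR quasi-likelihood tests 13, 2, 0, 0 and 5. The 12 calls of *Kat6a-/-* fell to 4 without WT replicate 2 or 4, to 5 without WT replicate 1 or 3, and to 6 and 7 without *Kat6a-/-* replicates 3 and 4. All genes called fell too, from 375 to 102, 210, 148, 115, 238 and 293, in that order. The 4 calls of double point mutants fell to 2 without WT replicate 2 and to 1 without WT replicate 3. All genes called there fell from 413 to 116 and 115.

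Markers of other cell types that share the heart factors were read beside them. The 8 tested motor neuron markers summed to 31.9 to 50.0 CPM in *Kat6a-/-* against 56.9 to 76.8 CPM in WT. Of 11 endoderm markers 2 fell in *Kat6a-/-*, *Foxa2* by 1.03 ± 0.21 SE (FDR = 0.0114) and *Foxa1* by 0.74 ± 0.18 SE (FDR = 0.0291), and *Epcam* rose by 0.43 ± 0.10 SE (FDR = 0.0319). *Foxa2* and *Epcam* kept their calls without the 3 *Xist* libraries, and *Foxa1* did not (-0.47 ± 0.15 SE, FDR = 0.096). Of 12 endothelial markers *Npr3*, a natriuretic peptide receptor of endocardium, fell by 0.38 ± 0.08 SE (FDR = 0.0116) in the same genotype. The 7 neural crest markers summed to 375.5 to 416.3 CPM in *Kat6a-/-* against 414.3 to 424.7 CPM in WT. Epicardial, primitive blood and trophoblast markers gave 0 calls in each of the 5 genotypes, with at most 2 of a list at an unadjusted p under 0.05. Primitive blood markers varied most between embryos, from 2537 to 11270 CPM in sum. The 3 trophoblast markers tested summed to 31.9 to 35.8 CPM in *Kat6a-/-*, above all WT embryos (24.5 to 29.6 CPM). What these lists contribute to *Isl1*, *Gata4* or *Gata6* was not tested.

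Across the 24 embryos the genes whose log2 CPM ran closest to *Tnnt2* were *Mybpc3* (Pearson r = 0.94), *Actn2* (0.889), *Mylk3* (0.885), *Ppp1r14c* (0.874) and *Myl4* (0.871). For *Isl1* they were *Tbx3* (0.841), *Zfp36l2* (0.774), *Lingo1* (0.747), *Hoxa6* (0.726) and *Snai1* (0.718). *Tnnt2* and *Myh6* had r = 0.82, *Nkx2-5* and *Gata4* 0.797, and *Isl1* and *Tnnt2* -0.116. These are descriptions over 24 embryos of 6 genotypes, of the same nominal stage but with unequal total counts, and no p is attached.

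In the 3 litters with a WT and a mutant embryo, *Tnnt2* was at 71.7 CPM in *Kat6a-/-* replicate 2 and 87.7 CPM in its WT littermate, at 76.7 CPM in *Kat6a E/E* replicate 1 against 66.03 CPM, and at 95.4 CPM in *Kat6b-/-* replicate 2 against 81.6 CPM. Of the 10 genes, 8, 6 and 5 were lower in the mutant. The *Kat6a-/-* and *Kat6b-/-* embryos of these pairs were *Xist* libraries and their WT littermates were not.

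The genes were also looked up in 16 libraries of E14.5 fetal liver LSK cells, a blood stem and progenitor fraction. *Mef2c*, which also acts in blood progenitors, was at 102 to 243 CPM there. *Nkx2-5* had 0 counts in all 16, and *Tnnt2* and *Myh7* had 0 in 13 of 16. *Gata4* reached 10.4 CPM in 1 library with a median of 0.785 CPM, and the other 5 genes stayed at 1.93 CPM or less.

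**Figure D5:**
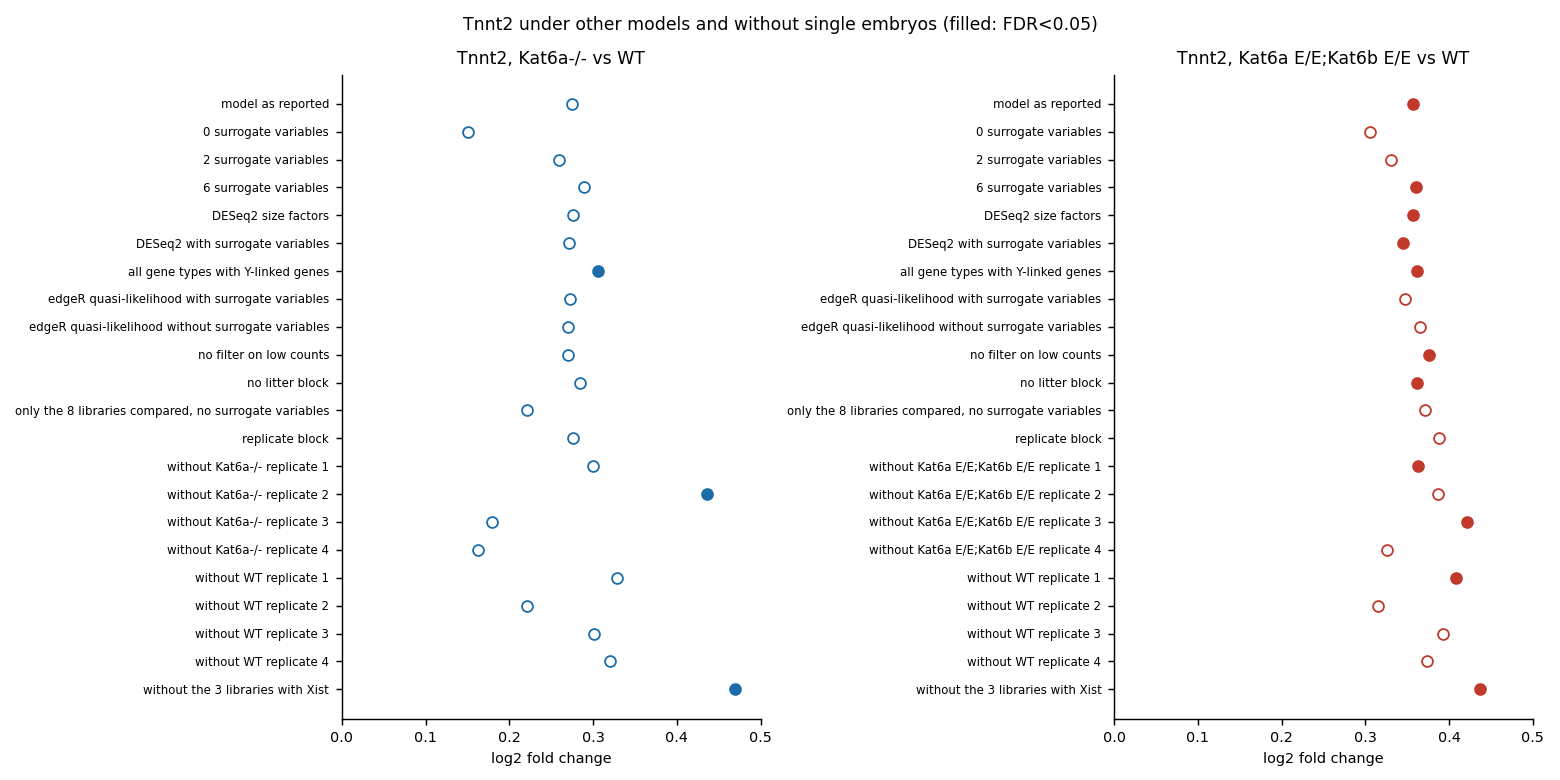
Log2 fold change of *Tnnt2* against WT in *Kat6a-/-* and in double point mutants under the reported model and 21 alternatives, filled at FDR<0.05. Values lie between 0.15 and 0.47 in *Kat6a-/-*, with 3 filled, and between 0.31 and 0.44 in double point mutants, where the reported model and 10 alternatives are filled.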

How the data were processed

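Counts per gene, 1 file per library, were used as the authors deposited them: read pairs assigned to RefSeq genes with featureCounts after alignment with Rsubread to mm39, unstranded and not normalised. The labels and the paper give different read lengths and sequencers. The members and gene lists were chosen with earlier results of these data known. Gene types came from a RefSeq table of GRCm38.p6, which matched 26359 of 26411 genes. Sequence windows are from RefSeq, GRCm38.p6; *Gata4*, *Gata6* and *Hand1* had no entry.

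Protein-coding genes without Y-linked genes were filtered with filterByExpr and scaled by TMM. As in the study's methods, voomLmFit (edgeR 4.0.16, limma 3.58.1, R 4.3.3) was fitted to all 24 embryos with 4 surrogate variables, litter as a random block (correlation 0.107) and robust empirical Bayes moderation. CPM values are TMM-scaled. Within each comparison p-values were adjusted by Benjamini and Hochberg's method over the 14183 genes (FDR), with a call at FDR<0.05. The p-values measure the spread between embryos, and 14 embryos shared a litter with another embryo of the series.

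Named are the 10 genes, called genes of each list against WT (up to 5 by smallest p), *Kat6a* and *Kat6b*, and the 5 genes most correlated with *Tnnt2* and *Isl1*. *Hoxb1*, *Acta1*, *Myl1*, *Smyd1*, *Nkx2-6*, *Atp2a2* and the *Mybpc3* call were named after their values had been seen. Alternatives were 0, 2 or 6 surrogate variables, no litter block, edgeR quasi-likelihood tests, DESeq2 1.42.0, DESeq2 size factors, no count filter, all gene types, a replicate block, the 8 libraries compared, and each embryo left out. Some calls of the lists are not reported here by name. Omission of the 3 *Xist* libraries was added after the data had been seen. The fit was also run on simulated counts, drawn independently for each gene without litter effects or hidden factors. That run cannot test the surrogate variables or the litter block. Shared sequence was counted in 66-base stretches of GENCODE vM39 transcripts. Length per kilobase is that of the count files.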

Additional observations from a re-analysis of the deposited data

Results flagged for a closer look

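With 4 embryos per genotype, the highest or lowest embryo stood far from the other 3 in 5 of 66 sets examined (the 10 genes and the sarcomere sum in 6 genotypes), by a gap taking up most of the whole range (Dixon's 95% criterion). Chance gives such a gap in about 1 in 20 sets. *Nkx2-5* was low in *Kat6a E/E* replicate 1, at 9.74 CPM. *Gata6* was high in *Kat6b-/-* replicate 1, at 55.7 CPM. *Myh6* was high in double point mutant replicate 4, at 426.8 CPM, and *Myh7* was high in *Kat6a E/E* replicate 4, at 309.4 CPM. The summed sarcomere list was low in *Kat6a-/-* replicate 2, at 1492 CPM, which is 1 of the 3 libraries with *Xist* and almost no Y-linked counts.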

How the results depend on the processing

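Of the heart genes' own values under other settings, 195 of 1680 changed sign, all of them called in neither fit. None that was called in either fit turned direction. Heart genes called in double point mutants against WT (1) became 0 with 0 or 2 surrogate variables, with edgeR quasi-likelihood tests with or without them, with the 8 libraries compared and with the replicate block, and 2 without the 3 *Xist* libraries; leaving out single embryos gave 0 to 1. Those in *Kat6a-/-* (0) became 1 with DESeq2 and 2 with all gene types or without the *Xist* libraries; leaving out single embryos gave 0 to 1, the 1 without *Kat6a-/-* replicate 2. The 4 heart lists in *Kat6a-/-* (12) gave 5 with 0 surrogate variables or edgeR without them, 3 with 2, and 22 without the *Xist* libraries, and 4 to 13 when single embryos were left out. In double point mutants (4) they gave 0 with 0 surrogate variables, edgeR without them or the 8 libraries, 7 with DESeq2, 16 without the *Xist* libraries and 1 to 5 without single embryos. In *Kat6b-/-* (2) they gave 0 with 0 or 2 surrogate variables, edgeR without them or the 8 libraries, 1 with DESeq2, and 0 to 2 without single embryos (0 without WT replicate 4, 1 without WT replicate 3 or *Kat6b-/-* replicates 3 or 4). In *Kat6a E/E* (0) they gave 2 with 6 surrogate variables, 1 with DESeq2, no count filter, the replicate block or without the *Xist* libraries, and 0 to 3 without single embryos, 3 without *Kat6a E/E* replicate 1. *Kat6a E/E* against *Kat6a-/-* (2) gave 0 with 0 surrogate variables or the 8 libraries, 9 without the *Xist* libraries and 1 to 2 without single embryos. Double point mutants against *Kat6a-/-* (0) gave 1 with 6 surrogate variables or DESeq2, and *Kat6b E/E* against *Kat6b-/-* (0) gave 1 with DESeq2, all gene types or without the *Xist* libraries. The number of all genes called also moved. In double point mutants against WT (413) it was 0 with 0 surrogate variables, edgeR without them or the 8 libraries. It was 428 with 2 surrogate variables, 537 with DESeq2, 527 without the *Xist* libraries and 115 to 502 without single embryos. In *Kat6a-/-* against WT (375) it was 111 with 0 surrogate variables, 159 with 2 or edgeR without them, and 422 without the *Xist* libraries. Leaving out single embryos gave 102 to 346. In *Kat6b-/-* against WT (72) it was 0 with 0 surrogate variables or edgeR without them, 29 with 2 and 3 with the 8 libraries. Replicate numbers did not pair embryos (correlations of same-numbered embryos -0.148 to 0.311), so the replicate block is given for completeness. The causes were not tested. With 4 embryos per genotype, the half-width of the 95% confidence interval of a heart gene's log2 fold change was 0.16 to 0.40, and differences smaller than that could not be told from 0.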
